A study of Danio rerio with 18 samples.

Results

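The znf genes of zebrafish (Danio rerio) that lie outside chromosome 4 were described in RNA enriched for new transcripts from embryos at genome activation. Members were all genes whose symbol begins with znf in the deposited count table, whose chromosome is other than 4, and which have a row in the deposited comparison tables. Of 352 znf genes in the count table, 172 lie on chromosome 4 and 180 elsewhere, and 164 of the 180 had a comparison row, out of 17135 genes with such a row. The other 16 had none and are not described further.

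Whole wild type embryos were dechorionated, injected with the labelled nucleotide s4UTP alone (the untreated group), together with MiR430 microRNA, or together with cdk9 mRNA for CDK9 overexpression, and collected at the 256-cell and the 1024-cell stage. Each of the 6 groups had 3 biological replicates, which gives 18 libraries. RNA that had taken up s4UTP was captured through biotin and treated with iodoacetamide, so that labelled bases read as mutations (enriched SLAM-seq). The sources used here do not say whether all reads or only converted ones were counted, so the values may include unlabelled RNA. All groups, controls included, received s4UTP, and no group received a control RNA, so that an effect of injected RNA as such cannot be told apart from that of CDK9 or MiR430.

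C2H2 zinc finger proteins carry short repeats that fold around a zinc ion, and arrays of such fingers read DNA sequence. They form the most numerous class of transcription factors in vertebrates, and many members arose by local gene duplication, so that related genes often sit side by side. In zebrafish a very large group lies on the long arm of chromosome 4, and the genes described here are znf-named genes that lie elsewhere. CDK9 is the kinase of P-TEFb, which releases paused RNA polymerase II into elongation, and miR-430 is the microRNA that clears maternal RNA in early zebrafish embryos. A znf symbol does not by itself prove C2H2 fingers: znfx1, for example, is named for another type of zinc finger and encodes a helicase-like protein. Protein sequences were not used here.

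Values per library were not used here, because no count column could be tied to a sample. Each gene has a single level, the authors' mean normalized count over all libraries, injected ones included. This level was the same in the 4 comparison tables. A gene that rose in an injected group thus has a level made in part by that rise. Mitochondrially encoded genes held 96.8% of the summed level of all genes, and the 17098 nuclear genes had a median level of 9.79 normalized counts. As a check of the tissue, all 10 listed maternal oocyte and germ plasm markers (levels 7.37 to 125) and all 10 early zygotic markers (4.30 to 3213) had a row in the tables, while 3 of 8 markers of later tissues did, at 0.618 to 2.56. In the authors' deposited tables, 8 of the 10 early zygotic markers rose under CDK9 at the 256-cell stage and 5 at the 1024-cell stage. Of the 10 maternal ones 0 rose at either stage, which is near the shares of all genes tested (5.04% and 5.89%). The marker lists were chosen with earlier results of these data known. Of 4 enveloping layer markers with a row 2 rose at the 256-cell stage and 1 at the 1024-cell stage, and of 2 yolk syncytial layer markers 1 rose at each. At the 256-cell stage the lowest level of a gene with an adjusted p was 8.45. The markers ved (4.30), nanos3 (7.37), cldne (6.84) and krt18a.1 (7.01) therefore could not be called there. In bulk embryos more cells of a type and more RNA per cell cannot be told apart. The injected cdk9 rose by 6.79 in log2 units (SE 0.41, adjusted p of 7.1e-59) at the 256-cell stage and by 5.88 (SE 0.39, adjusted p of 9.7e-50) at the 1024-cell stage per the authors' deposited tables.

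The 164 genes fell into 3 kinds by name. There were 84 with human-style names (a number under 900, as in znf143b), 70 of the zebrafish series (a number of 900 or more, as in znf1134), and 10 with no plain number (8 named znfl1 with or without a letter, znfl2a and znfx1). They lay on 22 chromosomes of the build GRCz11. Chromosome 22 held 48 of them, 46 of which were of the zebrafish series, and chromosome 3 held 17. Another znf gene lay within 100 kb of 69 of the 164, 60 of them of the zebrafish series, and 46 of the 69 were on chromosome 22.

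**Figure D1:**
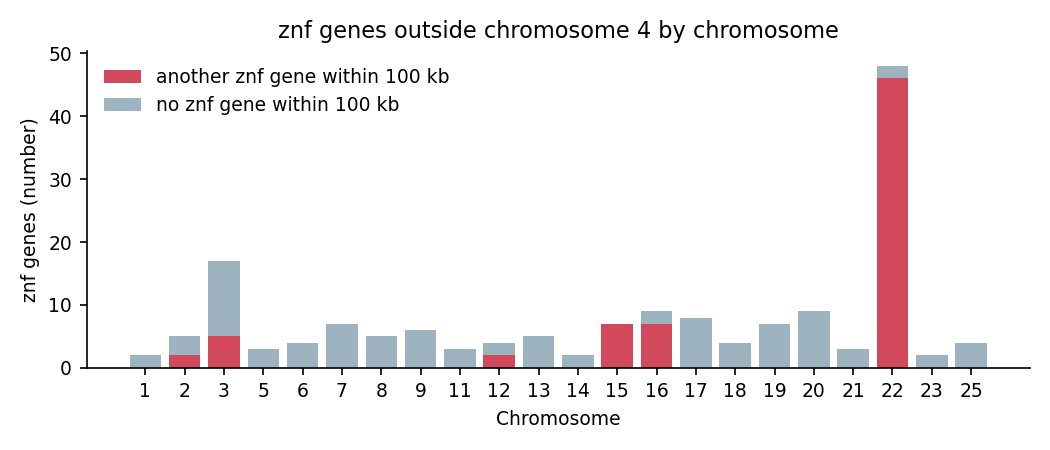
Number of znf genes outside chromosome 4 on each chromosome, stacked by whether another znf gene lies within 100 kb. Chromosome 22 holds 48 genes, 46 of them with such a neighbour, while most other chromosomes hold lone genes.

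The longest run of neighbours held 37 znf genes between 1526040 and 2321783 on chromosome 22, all of the zebrafish series. These genes were weakly represented, with a median level of 5.99 normalized counts. A run of 3 genes lay between 61349155 and 61387273 near the end of chromosome 3 (znf1134, znf1028 and znf1143), with a median level of 32.8. On chromosome 16, znf1035, znf576.1 and znf576.2 formed a run between 25011994 and 25169845, with a median level of 36.0. Of the 164 genes 22 shared 10 symbols among them, and such copies are told apart here by their Ensembl identifiers. The sources used here do not give the counting rule for reads that fit several copies, so the split of reads between near-identical copies is uncertain.

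Levels ranged from 0.373 normalized counts (znf366) to 434 (a znf1004 copy), with a median of 13.4 against 9.84 over all 17135 genes. A level of at least 10 was reached by 95 of the 164 and of at least 50 by 30. Human-style genes had a median level of 29.6 and longer exon sequence (median 3383 bases), and the zebrafish series had a median level of 6.68 and shorter exon sequence (median 1219 bases). Per kilobase of exon these medians were 9.23 and 5.10, and that of all genes was 4.46. The ranges of the 3 kinds overlapped widely on this scale.

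**Figure D2:**
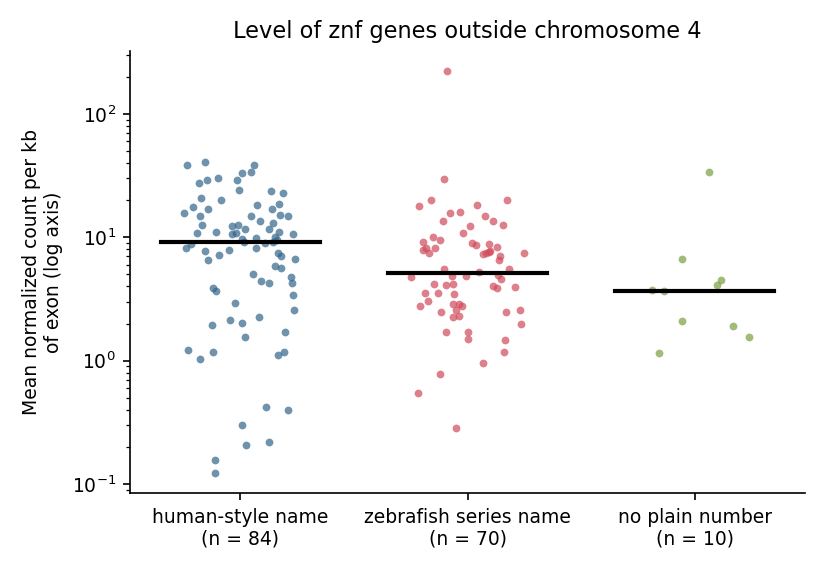
Mean normalized count per kilobase of exon (log axis) of the 164 genes by kind of name, with 1 point per gene and a bar at the median. The medians are 9.23 for human-style names, 5.10 for the zebrafish series and 3.70 for names with no plain number, and 1 zebrafish series gene, a znf1004 copy at 224, stands far above the others.

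Per kilobase of exon, the znf1004 copy ENSDARG00000097098 (chromosome 3, 61522759 to 61533097, plus strand, 4 exon blocks) had the highest level, at 224 normalized counts per kilobase. It alone held 8.43% of the summed level of the 164 genes. Its identifier carries the clone name si:zfos-44a5.1 in the reference name table. Next came znf598 (41.0 per kilobase), which in mammals is the ubiquitin ligase that senses collided ribosomes, and znf207a (38.8 per kilobase), whose human counterpart BuGZ acts at kinetochores and the spindle. The genes znf395a (38.3 per kilobase) and znf511 (33.9 per kilobase) followed. By level not divided by length, znf1004 was followed by znf292b (246), znf526 (155), znf1007 (148) and znf1035 (147). The other znf1004 copy, ENSDARG00000110008 on the same chromosome, had a level of 1.61.

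The first question was how CDK9 overexpression changed the enriched RNA of these genes at the 256-cell stage. A few members rose, led by the znf1004 copy ENSDARG00000097098, and 1 fell. Of the 164, 101 kept an adjusted p per the authors' deposited table, and the lowest level among them was 8.61. Among those 101, 5 rose (4.95%), beside 5.04% of all 9124 genes tested, and 1 fell (0.99%), beside 0.373% of all genes, so that 95 did not pass. The share that rose was thus near that of all genes. The median log2 fold change of the 101 was 0.13 per the authors' deposited table, beside 0.07 over all genes tested, and 66 of the 101 (65.3%) lay above 0, beside 58.4% of all genes. Among the 30 members at a level of 50 or more the median was 0.22, beside 0.19 over all such genes, and over all 164 members it was 0.04.

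The znf1004 copy ENSDARG00000097098 rose by 5.61 in log2 units (SE 2.16, adjusted p of 0.00267) at the 256-cell stage per the authors' deposited table. Its exons share 556 bases with those of zgc:113295 on the same strand, and that gene, with a level of 53.4, had a log2 change of 5.88 (adjusted p = 0.00566) in the same authors' deposited table. At the 1024-cell stage, where znf1004 did not pass, zgc:113295 had 4.61 (adjusted p of 0.0019) under CDK9 and 1.81 (adjusted p of 0.0309) under MiR430 per the authors' deposited tables. Reads of these overlapping genes cannot be fully told apart. The gene znf507, with a level of 67.4, rose by 1.84 (SE 0.85, adjusted p of 0.0041) per the authors' deposited table, and znf865, with a level of 121, rose by 1.34 (SE 0.70, adjusted p of 0.0186).

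From the run on chromosome 3, znf1143 rose by 1.77 (SE 1.22, adjusted p of 0.0211) per the authors' deposited table for this stage. On chromosome 2, znfl2a rose by 1.92 (SE 1.69, adjusted p of 0.0375) per the authors' deposited table. For both the standard error is large beside the change, and both lost the call when the statistics were recentred on the median of all genes (adjusted p = 0.0556 and 0.0893). The only fall was that of znf576.1 (level 36.0), which fell by 1.20 (SE 0.75, adjusted p of 0.0411) per the authors' deposited table and had an adjusted p of 0.0762 when all genes with a p were adjusted together. Its neighbour znf1035 had a log2 change of -0.87 (SE 0.39, adjusted p of 0.0569) per the authors' deposited table and did not pass. With recentred statistics 3 members rose and 2 fell.

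By kind of name, 2 of 65 tested human-style genes rose, 2 of 30 of the zebrafish series and 1 of 6 with no plain number at the 256-cell stage per the authors' deposited table. These shares were 3.08%, 6.67% and 16.7%, beside 5.04% of all genes, and rest on 1 or 2 genes each. By level, 0 of the 6 tested members under 10 rose, beside 0.62% of all such genes, and 3 of the 30 members at 50 or more rose (10%), beside 12.2% of all 2390 such genes. At levels from 10 to 50, 2 of 65 members rose (3.08%), beside 2.71% of all genes at that level. Levels include the injected libraries, so a gene can reach a higher class through its own rise. On chromosome 22, 0 of the 17 tested genes passed per the authors' deposited table, with 1 higher and 1 lower at an unadjusted p under 0.05.

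At the 1024-cell stage the same question was put. Rises were seen in genes of all 3 kinds of name, with znf1134, znfl2a and znf831 showing the largest deposited changes, and znf326 fell. Of 132 members with an adjusted p (lowest level 3.66), 11 rose (8.33%) per the authors' deposited table, beside 5.89% of all 11724 genes tested, and 1 fell (0.758%), beside 0.461% of all genes. The median log2 fold change of the 132 was 0.18 per the authors' deposited table, beside 0.04 over all genes tested. Among the 30 members at a level of 50 or more the median was 0.02, beside 0.03 over all such genes. At levels from 10 to 50 it was 0.28 over 65 members, beside 0.03 over all such genes. Under 10 it was 0.20 over 37 tested members, beside 0.06 over all such genes. Of the 132, 94 (71.2%) lay above 0, beside 55.9% of all genes.

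In the chromosome 3 run, znf1134 (level 39.5, minus strand, 61349155 to 61354239) rose by 4.43 (SE 1.25, adjusted p of 0.000725) per the authors' deposited table, and znf1143 (level 32.8) rose by 2.44 (SE 0.96, adjusted p of 0.0143). Between them in the annotation, znf1028 (level 30.2) had a log2 change of 1.48 (SE 1.26, adjusted p of 0.117) per the authors' deposited table and did not pass. Exons of znf1143 and znf1028 share 124 bases on one strand, so their reads may be split. The znf1004 copy lies 135486 bases from the nearest znf gene, beyond that run, and had a log2 change of 1.59 (SE 1.53, adjusted p of 0.12) at this stage per the authors' deposited table.

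Among names with no plain number, znfl2a (chromosome 2, 118225 to 122164, level 39.0) rose by 4.09 (SE 1.24, adjusted p of 0.00163) per the authors' deposited table. The faint gene znfl1i (level 5.63) rose by 2.28 (SE 2.05, adjusted p of 0.0416) per the authors' deposited table, a call lost when all genes with a p were adjusted together (adjusted p = 0.0604) and with recentred statistics (0.0707). Genes of the znfl1 type have been linked to the posterior neuroectoderm of zebrafish. All 10 genes of this kind had a log2 fold change above 0 per the authors' deposited table for the 1024-cell stage, from 0.08 to 4.09, and 8 of them did not pass. The symbols of the znfl1 genes are close, and reads may be shared between those genes. This kind is grouped by name alone and includes znfx1, which is named for another type of zinc finger.

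Human-style genes made up 6 of the 11 rises. With a level of 62.8, znf770 (chromosome 20, 10057750 to 10065130) rose by 3.00 (SE 0.79, adjusted p of 0.00157) per the authors' deposited table, and znf654 (chromosome 1, 33647682 to 33663705, level 65.6) rose by 2.97 (SE 1.00, adjusted p of 0.00645). The low gene znf831 (level 10.9) rose by 3.55 (SE 2.10, adjusted p of 0.00926) per the authors' deposited table. One copy of the general promoter-binding activator ZNF143, znf143b (level 34.6), rose by 2.33 (SE 0.94, adjusted p of 0.0156) per the authors' deposited table. The gene znf367 (level 17.8) rose by 2.13 (SE 1.00, adjusted p of 0.0273) per the authors' deposited table, and znf45l (level 19.9) rose by 2.33 (SE 1.29, adjusted p of 0.0366). The call of znf45l was lost when all genes were adjusted together (adjusted p = 0.0531) and with recentred statistics (0.0639). From the zebrafish series, znf1005 on chromosome 5 (level 19.0) rose by 3.06 (SE 1.33, adjusted p of 0.0137) per the authors' deposited table.

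The gene znf326 (chromosome 6, 25157331 to 25165693, level 62.3) encodes, in humans, a subunit of the DBIRD complex that couples elongation by RNA polymerase II to splicing. The gene fell by 1.58 (log2, SE 0.89, adjusted p of 0.0477) at the 1024-cell stage per the authors' deposited table, and its log2 fold change at the 256-cell stage was -0.76 (SE 0.58, adjusted p of 0.165). When all genes with a p were adjusted together, its adjusted p at the 1024-cell stage was 0.0691.

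**Figure D3:**
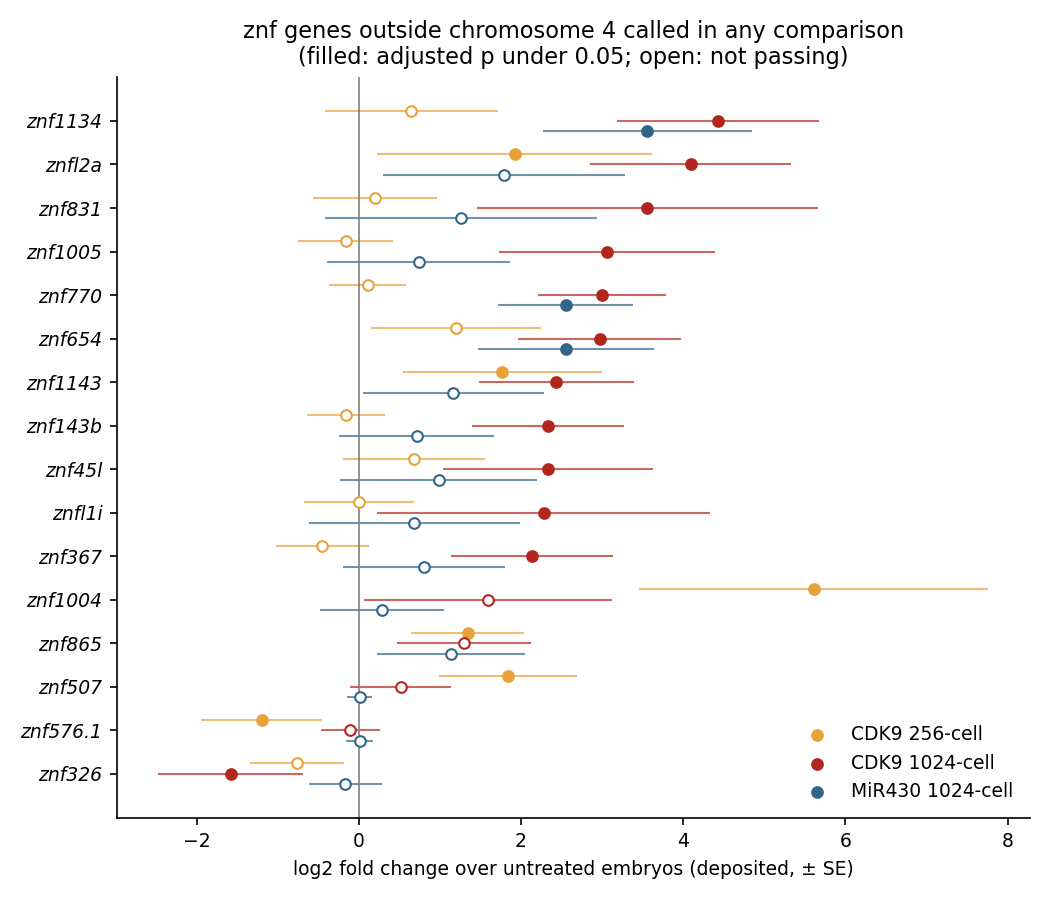
Deposited log2 fold changes (x axis, with SE bars) of the 16 znf genes outside chromosome 4 that passed in any comparison, for CDK9 at both stages and MiR430 at the 1024-cell stage. Filled points passed at an adjusted p under 0.05, and open points did not pass or, for znfl1i at the 256-cell stage, had no adjusted p. Rises of 2.13 to 4.43 under CDK9 at the 1024-cell stage fill the upper rows, and znf1004 stands out at the 256-cell stage.

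Among members at a level of 50 or more, 2 of 30 rose at the 1024-cell stage (6.67%) per the authors' deposited table, beside 13.8% of all genes at that level. At levels from 10 to 50, 8 of 65 rose (12.3%), beside 5.07% of all such genes. Below 10, 1 of 37 tested members rose (2.7%), beside 1.57% of all. Differences between these levels were not tested.

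Beside 0.04 over all genes, the median log2 fold change at the 1024-cell stage was 0.07 for the 73 tested human-style genes, 0.34 for the 49 of the zebrafish series and 0.74 for the 10 with no plain number per the authors' deposited table. Of the 49 zebrafish series genes 40 (81.6%) lay above 0, and of the 73 human-style genes 44 (60.3%), beside 55.9% of all genes. The zebrafish series had 3 rises (6.12%) and the human-style genes 6 (8.22%), beside 5.89% of all genes, and differences between kinds were not tested. Within the long run on chromosome 22, 21 of 25 tested genes had a log2 fold change above 0, with a median of 0.34, and 0 passed per the authors' deposited table. In that run at the 256-cell stage, 4 of 11 tested genes lay above 0, with a median of -0.25, beside 58.4% of all genes. Fewer genes of the run were tested at that stage, so these values of the 2 stages are not from the same set of genes. Standard errors were large for these faint genes, with a median of 0.84 over the tested genes of chromosome 22 at the 1024-cell stage. Of those 34 genes 5 were higher and 0 lower at an unadjusted p under 0.05, and znf45l passed.

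Beside these, the 166 znf genes of chromosome 4 had 18 rises among 117 tested (15.4%) at the 1024-cell stage and 16 among 74 tested (21.6%) at the 256-cell stage per the authors' deposited tables, beside 5.89% and 5.04% of all genes. Their median log2 fold changes were 0.93 and 0.36, against 0.18 and 0.13 outside chromosome 4. At the 1024-cell stage 114 of the 117 (97.4%) lay above 0. The difference between the groups of genes was not tested.

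**Figure D4:**
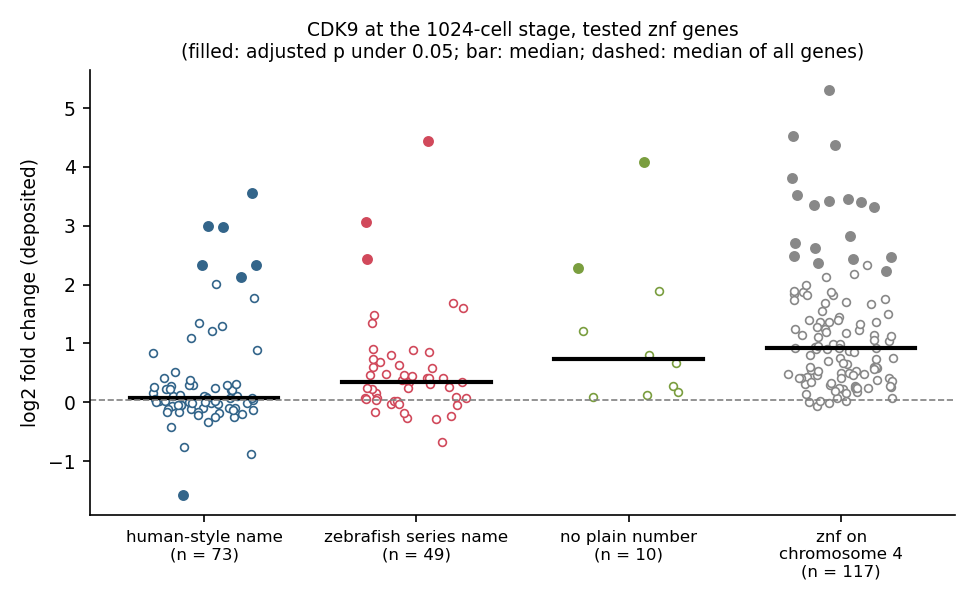
Deposited log2 fold changes under CDK9 at the 1024-cell stage for tested znf genes, by kind of name outside chromosome 4 and for chromosome 4, with bars at the medians, a dashed line at the median of all genes (0.04) and filled points for genes that passed. Medians are 0.07, 0.34, 0.74 and 0.93 from left to right.

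The stages were then compared directly, by subtracting each gene's deposited 256-cell log2 fold change from its 1024-cell one and dividing by the joint standard error. None of the 101 members tested at both stages passed after adjustment over all 9124 genes (0 calls, beside 0.197% of all genes). At an unadjusted p under 0.05 there were 6 members, 5 of them with the higher value at the 1024-cell stage, and a difference of z statistics also called 0, with 11 at an unadjusted p under 0.05. The smallest p belonged to znf770, which had log2 fold changes of 0.11 and 3.00 at the 256-cell and 1024-cell stages per the authors' deposited tables. Its difference was 2.89 (95% interval 1.08 to 4.70, adjusted p = 0.248). For znf1004 the difference was -4.01 (95% interval -9.19 to 1.17, adjusted p = 1.00).

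Only znf1143 and znfl2a rose at both stages, which is 40% of the 5 rises at the 256-cell stage and 18.2% of the 11 at the 1024-cell stage per the authors' deposited tables. The matching overlap over all genes is not given here, so these shares cannot be called low or high. Of the 11, znfl1i had no adjusted p at the 256-cell stage. The genes znf1004, znf865 and znf507 rose at the 256-cell stage only. Their log2 fold changes at the 1024-cell stage were 1.59, 1.29 and 0.51 per the authors' deposited table. The 256-cell calls of znf1143 and znfl2a were lost with recentred statistics (adjusted p = 0.0556 and 0.0893). Of 101 members tested at both stages 63 (62.4%) had the same sign, beside 59.8% of all genes. Across those 101 genes the log2 fold changes of the stages had a Pearson r of 0.34 and a Spearman rho of 0.33, against 0.42 and 0.33 over all 9124 genes. These correlations run across genes that share libraries and a normalization, and genes are not replicates.

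**Figure D5:**
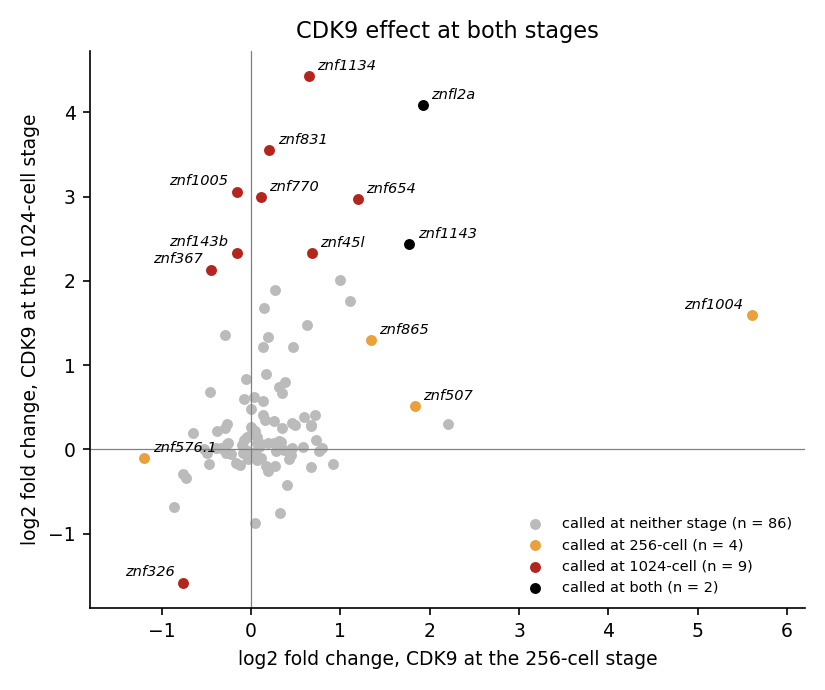
Deposited log2 fold changes under CDK9 at the 256-cell stage (x axis) and the 1024-cell stage (y axis) for the 101 znf genes outside chromosome 4 tested at both, coloured by the stage at which they passed. Only znf1143 and znfl2a passed at both, and 86 passed at neither.

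For MiR430 the question was whether the injected microRNA changed the enriched RNA of the same genes. At the 256-cell stage 0 of 138 members with an adjusted p passed per the authors' deposited table, beside 0.0323% of all 12373 genes that rose and 0.0242% that fell, and 2 members were higher and 2 lower at an unadjusted p under 0.05. Log2 fold changes of members lay between -0.005 and 0.003 per the authors' deposited table for that stage, including those with a small p, so they were strongly shrunken and give no size of change.

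At the 1024-cell stage 3 of 121 members tested rose under MiR430 (2.48%) per the authors' deposited table, beside 1.01% of all 10748 genes, and 0 fell, beside 0.0558%, with 0 members lower at an unadjusted p under 0.05. These were znf1134, which rose by 3.56 (SE 1.29, adjusted p of 0.00803), znf770, which rose by 2.55 (SE 0.84, adjusted p of 0.0184), and znf654, which rose by 2.55 (SE 1.08, adjusted p of 0.0298) per the authors' deposited table. All 3 also rose under CDK9 at that stage, where their log2 fold changes were 4.43, 3.00 and 2.97 per the authors' deposited table. Both comparisons use the same untreated embryos and are not independent. The next smallest p belonged to znf831 at 1.26 (SE 1.68, adjusted p of 0.076) and znfl2a at 1.79 (SE 1.50, adjusted p of 0.0827), neither of which passed per the authors' deposited table. Of the 121 members 89 (73.6%) had a log2 fold change above 0, beside 55.2% of all genes, and their median was 0.05, beside 0.01 over all genes tested.

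The authors' deposited table also holds a stricter call, which matched an adjusted p under 0.01 with an absolute log2 fold change above 2 in every row. By that call in the authors' deposited table, 1 of the 164 genes (znf1004) was up under CDK9 at the 256-cell stage, beside 1.32% of all genes, and 0 were down, beside 0.035%, with 6 lower at an unadjusted p under 0.05. At the 1024-cell stage 5 were up (znf1134, znf770, znfl2a, znf654 and znf831), beside 1.81%, and 0 down, beside 0.0642%, with 4 lower at an unadjusted p under 0.05. For MiR430 at the 256-cell stage 0 were up, beside 0.0233%, and 0 down, beside 0.0117%, and at the 1024-cell stage 1 (znf1134) was up, beside 0.123%.

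Most of the abundant members did not pass in any comparison, as was so for most genes at such levels. At a level of 50 or more, 27 of 30 members did not pass under CDK9 at each stage. Of all 2390 genes tested at that level, 2087 did not pass at the 256-cell stage and 2046 at the 1024-cell stage. Under CDK9, znf292b had log2 fold changes of 0.91 (SE 0.45, adjusted p of 0.0632) and -0.17 (SE 0.31, adjusted p of 0.677) at the 256-cell and 1024-cell stages per the authors' deposited tables. The values of znf526 were 0.58 (SE 0.44, adjusted p of 0.266) and 0.03 (SE 0.28, adjusted p of 0.964) per the authors' deposited tables. Those of znf1035 were -0.87 and -0.69 per the authors' deposited tables. They were the lowest among tested zebrafish series genes at each stage, and neither passed. For znf1007, in the chromosome 15 group, they were 0.07 (SE 0.30) and 0.15 (SE 0.27), and for znf598 they were -0.28 (SE 0.46) and -0.05 (SE 0.34), all from the authors' deposited tables. The gene znf207a had 0.17 (SE 0.40) and -0.19 (SE 0.38), znf395a had 0.04 (SE 0.31) and -0.03 (SE 0.25), and znf511 had 0.27 (SE 0.60) and -0.02 (SE 0.52) per the authors' deposited tables.

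Human-style genes include 13 pairs named a and b, which were paired by name alone and listed after the data were seen. Such pairs are often copies of 1 gene in fish. For znf804a, however, the reference name is ZNF804A, with the letter as part of the name. Whether znf804a and znf804b are copies of 1 gene is therefore not known here. Per kilobase of exon the gene named a had the higher level in 8 pairs and the gene named b in 5, znf804 among the latter. The widest ratio was that of znf644, whose mammalian counterpart works with the histone methyltransferases G9a and GLP, with 29.1 normalized counts per kilobase for znf644a and 0.123 for znf644b. For znf281, a regulator of pluripotency genes in mouse stem cells, the copies had 2.93 (znf281a) and 27.3 (znf281b) per kilobase. The copies of znf143 had 7.25 (znf143a) and 12.4 (znf143b) per kilobase, and znf143a had a log2 change of -0.06 (SE 0.54, adjusted p of 0.944) under CDK9 at the 1024-cell stage per the authors' deposited table, where znf143b rose. In znf281 the fainter copy znf281a had 1.77 (SE 1.57, adjusted p of 0.0974) and znf281b -0.05 (SE 0.26, adjusted p of 0.926) at that stage per the authors' deposited table. The copies of znf687, part of a chromatin reader complex in humans, had -0.11 (SE 0.41) and 0.07 (SE 0.37) per the authors' deposited table. Differences between copies were not tested.

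Other C2H2 families were set beside the znf genes. Of 122 such genes (Klf, Snail, Zic, Sall, Prdm, Zbtb and others), 10 of 63 tested rose under CDK9 at the 256-cell stage and 11 of 76 at the 1024-cell stage per the authors' deposited tables. These shares were 15.9% and 14.5%, beside 5.04% and 5.89% of all genes tested. None fell (0 at each stage, beside 0.373% and 0.461% of all genes), with 1 lower at an unadjusted p under 0.05 at each stage. The median log2 fold changes of the tested genes were 0.23 and 0.17, beside 0.07 and 0.04 over all genes. They include klf17, an early zygotic factor, which rose by 6.76 (SE 1.11, adjusted p of 1.3e-07) at the 256-cell stage, and the insulator protein gene ctcf, which rose by 1.56 (SE 0.69, adjusted p of 0.00581) and 2.11 (SE 0.65, adjusted p of 0.0049) at the 2 stages per the authors' deposited tables. The Snail repressor gene snai1a rose by 3.19 (SE 0.83, adjusted p of 0.00121) at the 1024-cell stage per the authors' deposited table. Under MiR430 0 of 74 tested at the 1024-cell stage passed per the authors' deposited table. Over all 10748 genes tested 1.01% rose and 0.0558% fell, so that 0 of 74 is near these shares. Of the 74 genes 11 were higher and 2 lower at an unadjusted p under 0.05.

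Among 22 genes for chromatin partners that C2H2 repressors use in mammals, 0 of 20 tested rose, beside 5.04% of all genes, and 1 fell (5%), beside 0.373%, under CDK9 at the 256-cell stage per the authors' deposited table, with 1 higher at an unadjusted p under 0.05. The faller was the H3K9 methyltransferase gene setdb1b, which fell by 1.07 (SE 0.40, adjusted p of 0.016) per the authors' deposited table. Of 22 genes 1 rose at the 1024-cell stage (4.55%, beside 5.89% of all genes), the Sin3 scaffold gene sin3ab, by 1.22 (SE 0.63, adjusted p of 0.0335) per the authors' deposited table. The heterochromatin protein gene cbx5 had a log2 change of 1.07 (SE 0.66, adjusted p of 0.0561) per the authors' deposited table and did not pass. Medians of this list were 0.07 and 0.08 at the 256-cell and 1024-cell stages, beside 0.07 and 0.04 over all genes per the authors' deposited tables.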

How the data were processed

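Libraries were stranded and made without polyA selection, per the labels' protocols. The submitters' processing notes name Trimmomatic, HISAT, SAMtools, Picard, featureCounts, DESeq2 and the build GRCz11. The sources used here do not say whether all reads or only converted ones were counted. The 18 count columns match no sample label and were not used, so depth per library is not given, and only symbols, coordinates and exon lengths of that table were read. Levels are the authors' deposited mean normalized count, a signal averaged over libraries. The log2 fold changes with standard errors (shrunken, judged from their values) and the p-values and adjusted p-values are as deposited by the authors.

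A gene rose or fell where the deposited adjusted p was under 0.05, with the direction read from the fold change. The tests planned on counts were not run. The stage difference used a normal p with Benjamini-Hochberg adjustment over all genes tested at both stages, and is approximate because the estimates are shrunken. It was run on simulated data that were not shrunken, which cannot show how it does on shrunken estimates. P-values rest on 3 replicates a group. The members and lists were chosen with earlier results of these data known.

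Named were all called members, up to 12 per comparison, the 5 highest by level and by level per kilobase, and up to 3 per other list. Of 164 identifiers 161 matched the reference name table. Alternatives were another threshold, filters at levels of 10 and 50 or none, recentring, Benjamini-Yekutieli adjustment and leaving out overlapping genes. Python 3.11.15, numpy 2.4.6, pandas 2.3.3, scipy 1.17.1 and matplotlib 3.10.9 were used.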

Additional observations from a re-analysis of the deposited data

How the results depend on the processing

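Calls among the znf genes outside chromosome 4 depended on the threshold. Under the authors' call column (adjusted p under 0.01 and absolute log2 fold change above 2) 1 member instead of 6 was called for CDK9 at the 256-cell stage, 5 instead of 12 at the 1024-cell stage and 1 instead of 3 for MiR430 at the 1024-cell stage. With Benjamini-Yekutieli adjustment the numbers were 2, 3 and 0. With only genes at a level of at least 50, 30 members were tested, and CDK9 at the 1024-cell stage had 6 calls, 4 up and 2 down. Without that filter 2 of the same 30 members rose and 1 fell. Of all 2390 genes tested with the filter 405 rose and 30 fell. The other alternatives kept the number of calls within 1.5 times in every comparison, no call changed direction, and MiR430 at the 256-cell stage had 0 calls under each. A like number of calls did not always mean the same genes. For CDK9 at the 256-cell stage the filter at 50 gave 5 up and 1 down. Without that filter 3 of the 30 members at that level rose and 0 fell. The median log2 fold change moved by over 1.5 times with the genes taken. For CDK9 at the 256-cell stage it was 0.13 over tested members, 0.0386 over all members and 0.22 at a level of at least 50, and at the 1024-cell stage it was 0.18 over tested members and 0.0249 at that level. For MiR430 at the 1024-cell stage it was 0.05 over tested members and 0.00865 at that level, and at the 256-cell stage it was 0 over all members and 9.41e-05 at that level, which are not readable as sizes. The stage difference had 0 calls under its 3 alternatives. No paired analysis was possible because the count columns carry no replicate numbers or sample names, and for the same reason leaving out replicates was not run. Low levels limit the results, since 26 members had an adjusted p in no comparison.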
